A study of Mus musculus with 34 samples.

Results

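Interferon response genes are the genes a cell turns on when it senses virus or receives an interferon signal. A set of 37 mouse genes of this kind was chosen by name: a gene is a member where the name column of the array files holds its symbol. Of the 37, 36 were found and all 36 were among the 19413 genes tested. They form 2 classes, 26 type I antiviral genes and 10 genes of the interferon-gamma type, which are GTPases and parts of antigen processing. Ifi27, a small mitochondrial interferon-induced protein and the remaining listed gene, has no probe under that name. A probe named Ifi27l1 carries an accession that RefSeq gives to Ifi27, and its values stand beside the members without being counted. The probe named Gbp6 carries an accession that RefSeq gives to Gbp7, so the values given here for Gbp6 follow the name in the files. RefSeq assigns other probes, named Mpa2l in the files, to Gbp6. These were well above background on all 34 arrays, but they are not counted as members and their values are not reported here.

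RNA was measured on 34 one-colour Agilent arrays, 2 for each of 17 groups of mouse heart cells. All cells came from the CD1 strain with the aMHC-GFP genotype, a transgene in which the alpha myosin heavy chain promoter, active in heart muscle cells, drives green fluorescent protein. The primary cells were cardiac fibroblasts (neoCF) and cardiomyocytes (neoCM) freshly isolated from pups at postnatal day 1.5. Induced cardiomyocytes (iCM) were taken 4 weeks after fibroblasts received a retrovirus that expresses Mef2c, Gata4 and Tbx5 from 1 transcript. Cardiomyocytes of a second route came from induced pluripotent stem cells, which had been made from cardiac fibroblasts with Oct4, Sox2, Klf4 and cMyc. They comprise iPSC1-CM D13 from one line, and iPSC2-CM D9 and iPSC2-CM D29 from another, so line and day differ together. A time course starts with fibroblasts at day 0 (CF D0). It follows reprogramming cells (MGT, after the 3 factors) and control cells titled LacZ on days 3, 5, 7, 10 and 14. The iCM and the stem cell-derived cells were kept in StemPro 34 medium with ascorbic acid, VEGF, bFGF and FGF10. No sort for GFP is stated, and the labels number replicates 1 and 2 without saying whether they were separate preparations, so the p-values may measure technical spread only. In such bulk RNA, fewer expressing cells and less RNA per cell cannot be told apart.

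Type I interferons bind the IFNAR receptor, and the kinases JAK1 and TYK2 then phosphorylate STAT proteins, among them STAT2, which act together with IRF9. The complex binds the interferon-stimulated response element (ISRE) and turns on antiviral genes, among them Irf7, which amplifies the loop. Interferon-gamma acts on the gamma-activated sequence (GAS), with IRF1 as an early target, and drives guanylate-binding proteins, immunity-related GTPases and the immunoproteasome. Fibroblasts make interferon-beta when their nucleic acid sensors are engaged, whereas interferon-gamma comes mainly from T and NK cells. Most members answer to both signals, so the classes differ by degree.

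The promoters below are shown because they hold matches to the elements named above, in members of both classes. Each is the 160 bases before the start of a gene in RefSeq's annotation of mouse build GRCm38.p6, read along the gene's strand. Capitals mark matches to the ISRE letters (GAAA, any 2 bases, GAAA) on either strand, overlapping matches merged, or to the GAS letters TTCNNNGAA, which read the same on both strands. Isg15 lies at chr4:156200819-156200978 on the minus strand, Ifit1 at chr19:34640729-34640888 on the plus strand, Irf1 at chr11:53769854-53770013 on the plus strand, Gbp2 at chr3:142620503-142620662 on the plus strand, Igtp at chr11:58199396-58199555 on the plus strand and Psmb8 at chr17:34198035-34198194 on the plus strand.
Isg15: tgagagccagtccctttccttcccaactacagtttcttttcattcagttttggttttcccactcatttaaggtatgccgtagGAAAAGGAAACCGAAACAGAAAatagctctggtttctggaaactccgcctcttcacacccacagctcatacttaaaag
Ifit1: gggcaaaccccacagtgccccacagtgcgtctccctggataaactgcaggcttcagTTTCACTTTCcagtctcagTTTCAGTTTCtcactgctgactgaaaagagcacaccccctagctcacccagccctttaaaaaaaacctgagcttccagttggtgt
Irf1: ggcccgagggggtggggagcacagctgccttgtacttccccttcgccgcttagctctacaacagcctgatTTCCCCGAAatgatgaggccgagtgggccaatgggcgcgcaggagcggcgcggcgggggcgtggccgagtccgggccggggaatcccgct
Gbp2: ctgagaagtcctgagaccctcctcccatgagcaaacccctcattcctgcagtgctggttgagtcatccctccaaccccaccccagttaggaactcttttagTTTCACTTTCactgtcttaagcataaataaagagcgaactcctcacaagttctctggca
Igtp: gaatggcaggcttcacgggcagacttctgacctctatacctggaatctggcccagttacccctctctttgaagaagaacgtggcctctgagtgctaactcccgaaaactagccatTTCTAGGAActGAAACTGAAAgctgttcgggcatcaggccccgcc
Psmb8: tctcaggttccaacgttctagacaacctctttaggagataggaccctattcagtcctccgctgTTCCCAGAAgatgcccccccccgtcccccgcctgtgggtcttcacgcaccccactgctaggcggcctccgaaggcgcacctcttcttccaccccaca
Isg15 has 3 overlapping ISRE matches between 78 and 57 bases before its start, and Ifit1 has 2, beginning 104 and 85 bases before it. Irf1 and Psmb8 have a GAS match and no ISRE match in this stretch, Gbp2 has an ISRE match only, and Igtp has both. Windows of 300 bases, from 250 before to 50 after the start, were available for 27 of the 37 members. A gene with several windows counts once if any of them holds a match (32851 windows in all). An ISRE match was held by 14 of those 27 genes (51.9%), against 1079 of the 27025 genes with a window (3.99%). A GAS match was held by 7 of the 27 (25.9%), against 2582 genes (9.55%). By class, the ISRE share was 10 of 19 type I genes (52.6%) and 4 of 8 genes of the gamma type (50.0%), and the GAS share was 4 of 19 (21.1%) and 3 of 8 (37.5%). The windows of Tap1 and Psmb9, which are transcribed away from each other, overlap by 275 bases. A match describes letters only and shows no binding.

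Levels are given as log2 of the processed fluorescence minus the 75th percentile of the same array, so a difference of 1 is a 2-fold change. A pair of values is replicate 1 and replicate 2, a level of one probe is not compared with that of another, and a change is called at a Benjamini-Hochberg adjusted p under 0.05 in limma and at least 2-fold. Between 28715 and 44881 of 59305 spots per array were well above background, and none was saturated. Of the 36 members, 20 were well above background on all 34 arrays, and the lowest was so on 22. The replicates of iPSC2-CM D29 stand apart: they correlated at r = 0.895 across genes, 22 members differed at least 2-fold between them, and their median fibroblast marker (9 genes) was -1.47 and -6.94 relative to each gene's mean. Because 1 estimate of spread is shared by all groups, these arrays enter the errors of every comparison, and counts fitted without them are given where they differ by over 1.5 times. In neoCF 6 members differed at least 2-fold between replicates, in iPSC2-CM D9 8, in LacZ D14 3, in neoCM and LacZ D10 1 each, and in the other 11 groups none. All 9 fibroblast markers were above background in neoCF and CF D0, and all 8 cardiomyocyte markers in neoCM, iCM and the 3 stem cell-derived groups. Detection did not part the cell types, since the 8 were also above background in neoCF and the 9 in neoCM, iCM, iPSC1-CM D13 and iPSC2-CM D9. Relative to each gene's mean, the fibroblast median was 1.02 and 1.12 in neoCF, -0.16 and 0.32 in neoCM and 1.34 and 1.26 in iCM. The cardiomyocyte median was 1.11 and 0.41, 6.38 and 6.38, and 2.15 and 2.33 in the same groups. Both neoCF and neoCM also carried erythroid markers (median 6.65 and 6.42, and 10.46 and 10.54, above each gene's mean) and granulocyte markers (7.00 and 6.40, and 4.59 and 4.62).

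The highest group mean was in CF D0 for 29 of the 36 members, in LacZ D3 for 5, in LacZ D7 for Iigp1 on its reported probe and in neoCF for Irf1. The lowest was in iPSC2-CM D9 for 21 members, in iPSC1-CM D13 for 11, in neoCM for 3 and in iPSC2-CM D29 for 1.

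**Figure D1:**
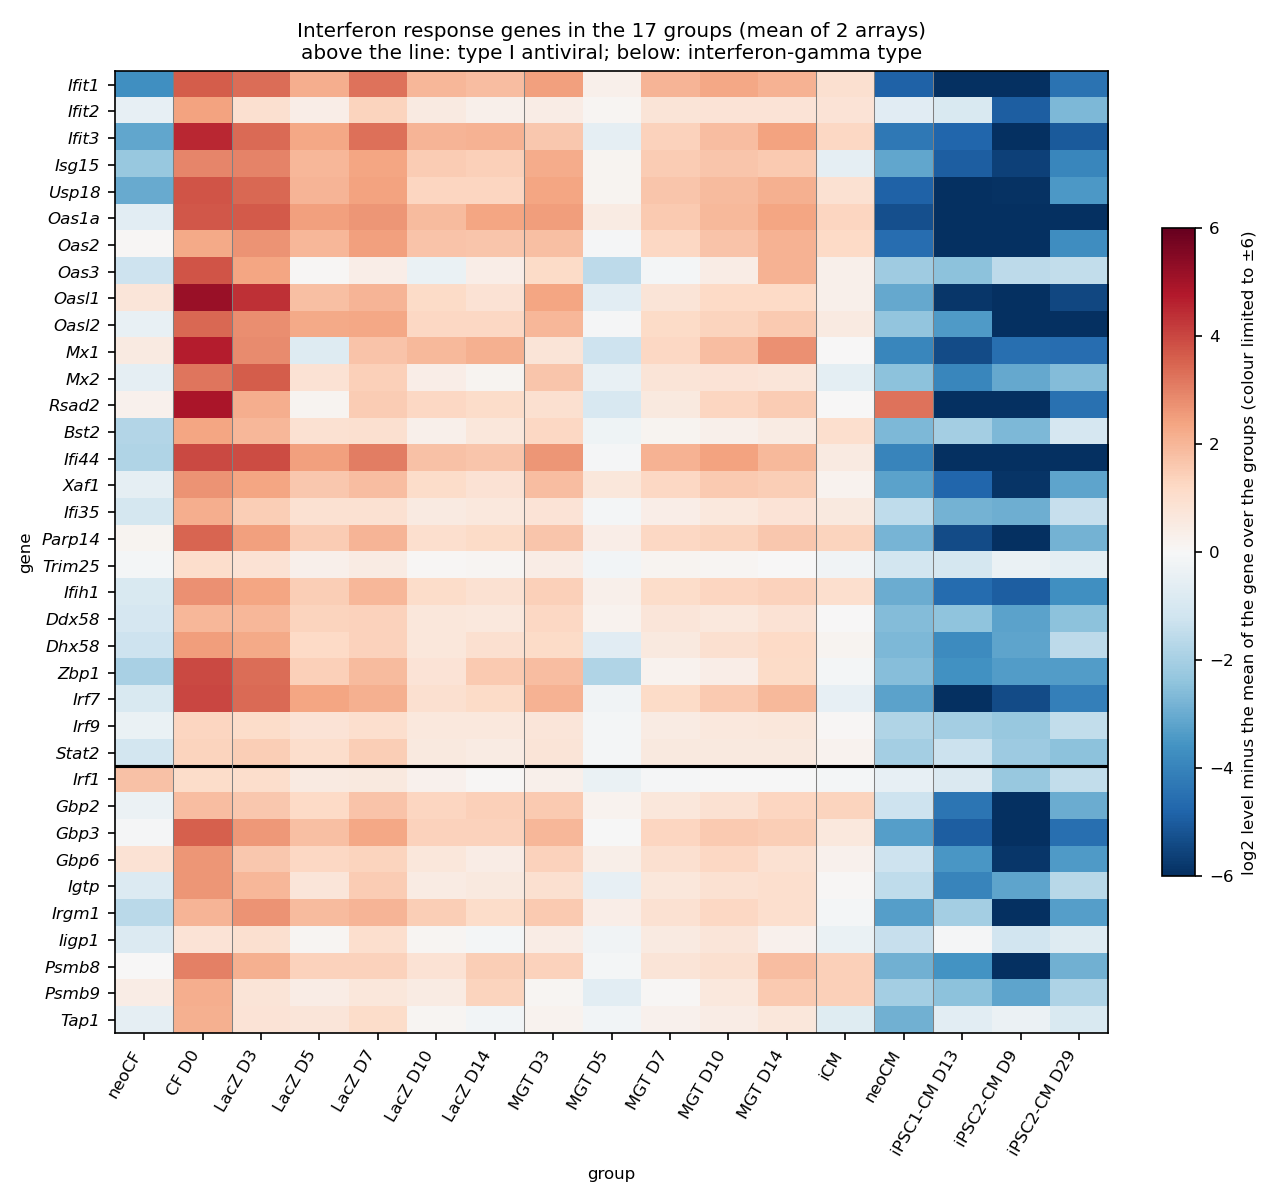
Mean level of each member (rows) in the 17 groups (columns, 2 arrays each), as log2 level minus the mean of the gene over the groups, with colour limited at 6 in either direction. The line parts the 26 type I members from the 10 of the gamma type. CF D0 holds the highest mean for 29 members, and the stem cell-derived columns hold most of the lowest.

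Isg15, a ubiquitin-like protein that is attached to host and viral proteins, had a log2 level of 2.82 and 2.49 in neoCF and 1.8 and 1.82 in neoCM. It stood at 7.82 and 7.86 in CF D0, at 7.91 and 7.88, 6.89 and 6.89, 7.23 and 7.38, 6.53 and 6.32 and 6.64 and 6.05 along the LacZ course (days 3, 5, 7, 10 and 14), and at 7.18 and 7.11, 5.04 and 5.11, 6.47 and 6.45, 6.71 and 6.49 and 6.54 and 6.41 along the MGT course. The iCM arrays gave 4.49 and 4.32, those of iPSC1-CM D13 -0.09 and 0.01, and it was -0.48 and -0.87 in iPSC2-CM D9 and 1.75 and 0.22 in iPSC2-CM D29. All 22 arrays of the course lay above every array of the other 6 groups, and within the MGT course the day 5 arrays were the lowest.

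Ifit1 binds viral RNA that lacks a host cap and blocks its translation. Its level was -2.08 and -3.22 in neoCF, -3.85 and -3.71 in neoCM and 4.75 and 4.60 in CF D0. With LacZ it was 4.35 and 4.41 on day 3, 3.22 and 3.23 on day 5, 4.28 and 4.33 on day 7, 3.20 and 2.89 on day 10 and 3.20 and 2.56 on day 14, and with MGT 3.50 and 3.56, 1.48 and 1.25, 3.1 and 3.1, 3.63 and 3.12 and 3.22 and 3.06 on the same days. The MGT arrays were below the LacZ arrays on days 3, 5 and 7, and the groups overlapped on days 10 and 14. In iCM it was 1.93 and 2.05, in iPSC1-CM D13 -5.35 and -4.99 and in iPSC2-CM D29 -1.81 and -4.93, while both iPSC2-CM D9 arrays (-5.79 and -6.65) were not well above background.

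Ifit3, which stabilises Ifit1 on RNA, stood in CF D0 at 6.05 and 6.13, against -1.08 and -2.06 for neoCF, -2.76 and -2.73 for neoCM and 2.72 and 2.88 for iCM. On days 3, 5, 7, 10 and 14 the LacZ arrays gave 4.97 and 4.94, 3.89 and 3.88, 4.90 and 4.85, 3.79 and 3.42 and 4.11 and 3.20, and the MGT arrays 3.18 and 3.17, 1.12 and 0.91, 2.92 and 2.96, 3.69 and 3.16 and 4.05 and 3.87. The stem cell-derived cells gave -3.24 and -3.11 in iPSC1-CM D13, -1.64 and -5.30 in iPSC2-CM D29 and -7.48 and -6.04, not well above background, in iPSC2-CM D9. Its range over the group means, 12.85 on the log2 scale, was the widest of the 36 members.

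Among the transcription factors of the response, Irf7, which carries the signal onward to the interferon-alpha genes, stood at -1.64 and -1.88 in neoCF, -4.15 and -3.93 in neoCM, -1.29 and -1.39 in iCM and 3.04 and 3.25 in CF D0. The LacZ course ran from 2.54 and 2.53 on day 3 over 1.54 and 1.5, 1.27 and 1.27 and 0.33 and -0.07 to 0.63 and -0.01 on day 14. The MGT course ran from 1.25 and 1.22 over -0.99 and -1.10, 0.42 and 0.19 and 0.75 and 0.69 to 1.12 and 1.07. Its LacZ mean was lower on each next day through day 10, and its MGT mean was lowest on day 5. It was not well above background in iPSC1-CM D13 (-7.29 and -7.22) and iPSC2-CM D9 (-5.64 and -6.83), and on 1 of the iPSC2-CM D29 arrays (-4.56 and -5.39). Stat2, the subunit of that complex that activates transcription, moved over a narrower range: 1.78 and 2.03 in neoCF, 0.96 and 0.95 in neoCM, 3.18 and 3.27 in iCM, 4.35 and 4.30 in CF D0. On days 3 to 14 it was 4.52 and 4.42, 4.02 and 4.05, 4.37 and 4.55, 3.71 and 3.43 and 3.69 and 3.30 with LacZ and 3.77 and 3.79, 2.95 and 2.79, 3.53 and 3.58, 3.69 and 3.45 and 3.62 and 3.52 with MGT. Stat2 stayed measurable in the stem cell-derived cells, at 1.68 and 1.67, 0.85 and 0.77 and 1.05 and 0.01 in iPSC1-CM D13, iPSC2-CM D9 and iPSC2-CM D29.

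In the class of the gamma type, Irf1, an early transcription factor of the interferon-gamma response, was the member with its highest mean in fresh fibroblasts. It stood at 4.69 and 5.56 in neoCF, 4.45 and 4.5 in CF D0, 2.94 and 2.84 in neoCM and 3.30 and 3.21 in iCM, and at 2.47 and 2.48, 1.18 and 0.95 and 2.16 and 1.65 in iPSC1-CM D13, iPSC2-CM D9 and iPSC2-CM D29. From day 3 to day 14 the LacZ arrays gave 4.47 and 4.42, 3.94 and 3.88, 3.95 and 4.00, 3.73 and 3.50 and 3.60 and 3.29, and the MGT arrays 3.62 and 3.70, 2.94 and 3.00, 3.27 and 3.30, 3.44 and 3.24 and 3.38 and 3.30. Its second probe was well above background on 4 arrays only and followed the reported one at r = 0.46 over the 17 group means.

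Gbp2, a guanylate-binding protein that coats vacuoles holding pathogens, differed between the neoCF replicates (2.40 and 1.27) and most in iPSC2-CM D29 (2.02 and -3.61). It was 4.03 and 4.06 in CF D0, 1.07 and 0.77 in neoCM, 3.42 and 3.62 in iCM, -2.17 and -2.29 in iPSC1-CM D13 and -3.95 and -4.15 in iPSC2-CM D9. The course gave 3.76 and 3.79, 3.34 and 3.37, 3.91 and 3.88, 3.48 and 3.46 and 3.88 and 3.35 with LacZ and 3.81 and 3.68, 2.34 and 2.39, 2.79 and 2.94, 3.08 and 3.09 and 3.53 and 3.42 with MGT. Iigp1, an immunity-related GTPase that acts on parasite vacuoles, covered the narrow range of 2.39 between group means on its reported probe: -0.10 and -0.06 in neoCF, -0.58 and -0.67 in neoCM, 1.62 and 1.55 in CF D0, 0.36 and 0.33 in iCM. It was 1.68 and 1.69, 0.88 and 0.83, 1.88 and 1.63, 0.97 and 0.82 and 0.33 and 0.95 with LacZ, 1.22 and 1.18, 0.57 and 0.46, 1.26 and 1.28, 1.65 and 1.26 and 1.02 and 1.02 with MGT, and 0.60 and 0.73, -0.37 and -0.38 and -0.02 and 0.00 in iPSC1-CM D13, iPSC2-CM D9 and iPSC2-CM D29. The second Iigp1 probe gave wider differences, 3.00 against 1.67 for CF D0 over neoCF and -1.54 against -0.33 for MGT over LacZ on day 5, and followed the reported probe at r = 0.79 over the 17 group means. Its range was wider too, from 0.76 and 0.65 in CF D0 to -7.47 and -7.48 in iPSC2-CM D9. Averaged over iPSC1-CM D13 and iPSC2-CM D9 it gave -1.79 against 0.22 over neoCF, with 2 of those 4 arrays well above background.

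Psmb8, a catalytic subunit of the immunoproteasome, stood at 1.05 and 0.62 in neoCF, -2.69 and -1.45 in neoCM, 3.79 and 3.89 in CF D0 and 2.21 and 2.29 in iCM. The LacZ arrays gave 2.95 and 2.86, 2.15 and 2.20, 2.06 and 2.29, 1.35 and 2.00 and 2.55 and 1.97 and the MGT arrays 2.26 and 2.15, 0.65 and 0.68, 1.54 and 1.62, 1.84 and 1.64 and 2.55 and 2.78 from day 3 to day 14. It was -2.96 and -2.63 in iPSC1-CM D13, -1.0 and -3.18 in iPSC2-CM D29 and not well above background in iPSC2-CM D9 (-6.53 and -6.31). Tap1, a subunit of the transporter that brings peptides to MHC class I, had its lowest mean in neoCM. Its levels were -1.73 and -1.34 in neoCF, -4.16 and -3.60 in neoCM, 0.94 and 1.34 in CF D0, -1.69 and -1.77 in iCM, -1.99 and -1.28 in iPSC1-CM D13, -1.83 and -0.90 in iPSC2-CM D9 and -2.56 and -1.25 in iPSC2-CM D29. From day 3 to day 14 it was -0.22 and -0.14, -0.29 and -0.29, 0.13 and 0.04, -0.79 and -1.02 and -0.89 and -1.44 with LacZ and -0.73 and -0.85, -1.01 and -1.34, -0.70 and -0.83, -0.48 and -0.64 and -0.27 and -0.42 with MGT. Over the 17 group means Tap1 followed the median of its class at r = 0.57, the lowest value among the 36 members, and Iigp1, on its reported probe, came next at r = 0.74.

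The Ifi27l1-named probe that RefSeq assigns to Ifi27 had another course than the members. It stood at 4.57 and 4.05 in neoCF and 4.98 and 4.84 in CF D0, then at 5.18 and 5.21, 5.70 and 5.66, 5.77 and 6.02, 6.41 and 6.29 and 6.44 and 6.62 with LacZ and 5.69 and 5.65, 6.27 and 6.30, 6.36 and 6.31, 6.65 and 6.48 and 6.77 and 6.78 with MGT. It was 4.33 and 4.10 in neoCM, 6.47 and 6.24 in iCM, 1.99 and 2.02 in iPSC1-CM D13, -3.86 and -4.89 in iPSC2-CM D9 and 4.11 and -1.83 in iPSC2-CM D29. The day 14 arrays were above those of day 3 in both courses.

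Fibroblasts at day 0 of the course carried far higher levels of nearly the whole set than freshly isolated fibroblasts. Against neoCF, 33 of 36 members rose in CF D0 and none fell, where 17.5% of the genes tested were called higher. All 26 type I members rose, with a median log2 change of 4.02, and 7 of 10 of the gamma type, with a median of 2.44, beside 0.11 over all genes tested. Ifit3 led (log2 change 7.66, SE 0.69, adjusted p = 1.7e-08), followed by Ifit1 (log2 change 7.32, SE 0.58, adjusted p = 3.1e-09). Usp18, the protease that removes Isg15 from proteins and damps IFNAR signalling, went from -1.26 and -2.11 to 5.08 and 5.17 (log2 change 6.81, SE 0.26, adjusted p = 1.1e-13). The ranges of the neoCF and CF D0 arrays do not overlap for any of these.

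Among the GTPases, Irgm1, a regulator of autophagy and of the other immunity-related GTPases, went from 1.54 and 1.71 in neoCF to 5.27 and 5.26 in CF D0 (log2 change 3.64, SE 0.30, adjusted p = 4e-09). Gbp3 went from 1.71 and 1.39 to 5.23 and 5.11 (log2 change 3.62, SE 0.94, adjusted p = 0.003), and Igtp, a GTPase of resistance to intracellular parasites, from 1.15 and 0.74 to 4.54 and 4.32 (log2 change 3.48, SE 0.19, adjusted p = 2.1e-11). The 3 members without a call were Irf1 at -0.65, Gbp6 and Gbp2, all of the gamma type. By role, all 5 IFIT and ISG15 genes (median 6.81), 5 OAS genes (4.36), 2 Mx genes (3.98), 4 sensors (3.72), 3 transcription factors of the type I class (2.42) and 3 antigen processing genes (2.68) rose. Leaving out neoCF replicate 2 ended the calls of Oas2 (1.67, adjusted p = 0.063) and Oasl2 (3.35, adjusted p = 0.079). Trim25, a ubiquitin ligase of RNA sensing, was under 2-fold with quantile normalization (0.51), normexp with quantile (0.50) and the authors' values (0.54).

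The marker lists moved differently from the members in this comparison. Of 13 macrophage markers 7 fell and 2 rose in CF D0 against neoCF, with a median of -1.24. Their median level was 0.13 and 0.18 in CF D0 and 2.92 and 2.66 in neoCF, with all 13 well above background in both. None of the 9 fibroblast markers was called. Relative to each gene's mean, granulocyte markers had medians of 7.00 and 6.40 in neoCF and 1.21 and 0.86 in CF D0. In the same order, erythroid medians were 6.65 and 6.42, and 1.49 and 0.85, and endothelial medians 4.05 and 4.09, and 1.58 and 1.71. Cardiomyocyte medians were 1.11 and 0.41, and -2.27 and -2.40. Those of T, B and NK cell markers were 1.57 and 1.53, and -0.37 and -0.18, with 3 of 6 genes well above background in CF D0. Plasmacytoid dendritic cell medians (0.16 and 0.23, and 0.06 and 0.19) and pluripotent stem cell medians (-1.06 and -1.18, and -0.92 and -0.89) differed little. The part of the marker lists in the members' values was not tested. The CF D0 and neoCF arrays shared a slide and a scan day.

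**Figure D2:**
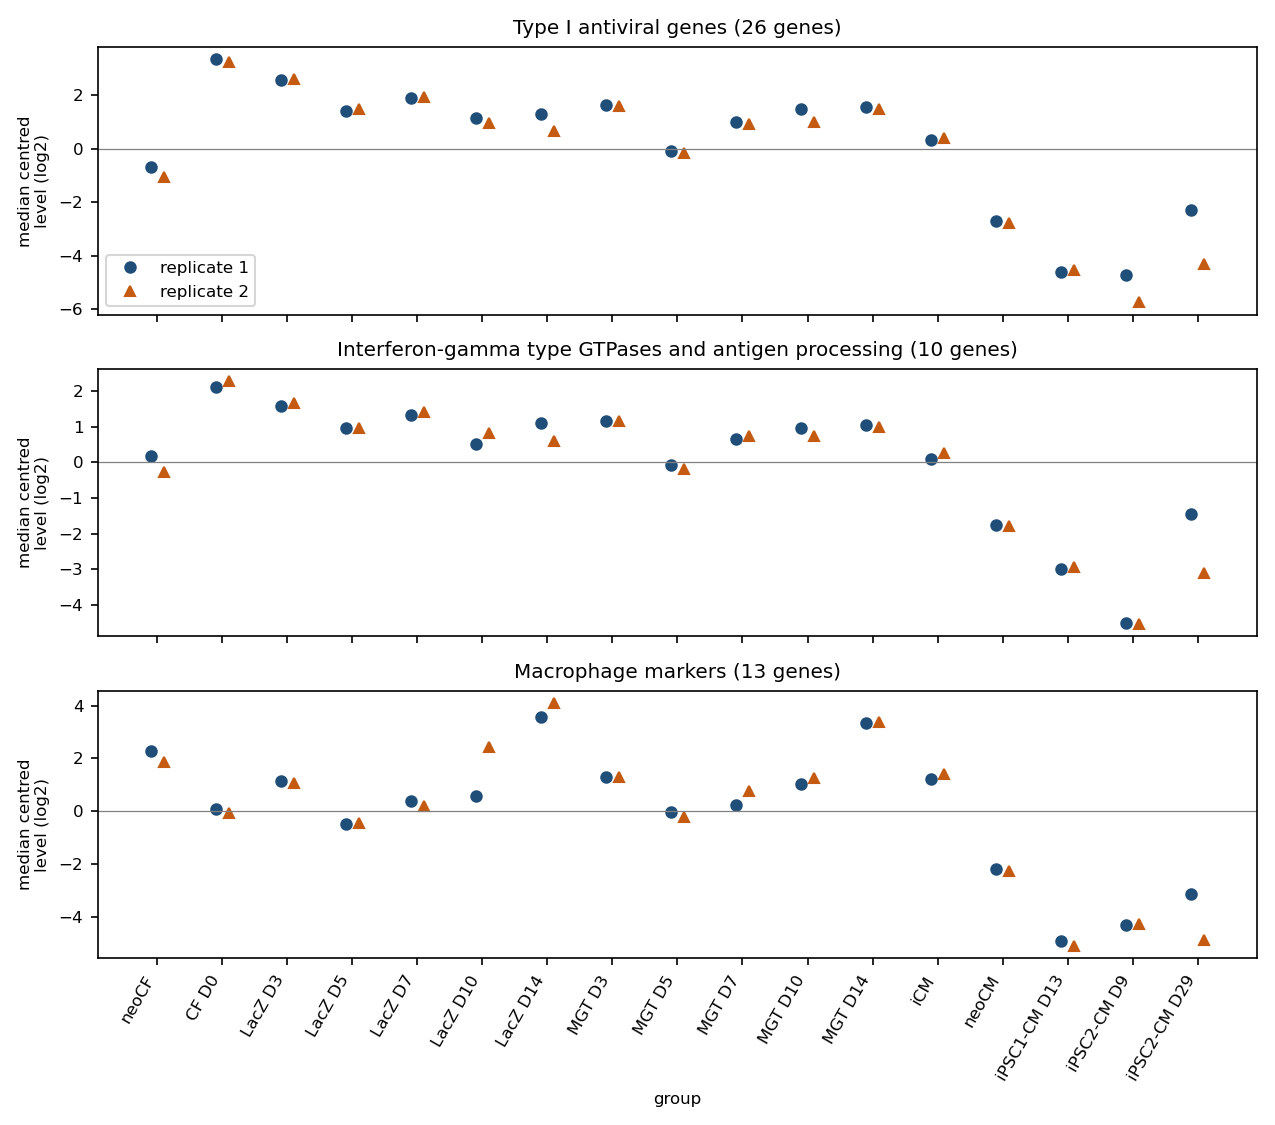
Median over each list of the centred log2 level (vertical axes) on every array of the 17 groups, for 26 type I members, 10 members of the gamma type and 13 macrophage markers; circles are replicate 1 and triangles replicate 2. CF D0 is at 3.34 and 3.25 for type I, while its macrophage markers are at 0.08 and -0.06.

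The ligands differed between the fibroblast groups. Ifnb1, interferon-beta, was well above background on both arrays of 3 groups only: -4.08 and -4.87 in neoCF, -1.02 and -1.25 in CF D0 and -3.54 and -3.58 in LacZ D3. It rose in CF D0 against neoCF (log2 change 3.34, SE 0.60, adjusted p = 0.00011). Ifng, interferon-gamma, showed the opposite, with -1.58 and -1.75 in neoCF and -4.68 and -4.61 in neoCM and no other group well above background. In CF D0 it was at least 10.2-fold below neoCF (adjusted p = 5.4e-09 in limma). Of 10 listed ligands 7 were measured, and those 2 were the ligands called in CF D0 against neoCF.

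Downstream of the ligands, Ifnar1, a chain of the type I receptor, was 2.66 and 2.80 in neoCF and 2.49 and 2.41 in CF D0 (log2 change -0.28, SE 0.18, adjusted p = 0.21), which is no call. Ifngr1, a chain of the interferon-gamma receptor, was 3.45 and 3.66 and 3.42 and 3.43 (log2 change -0.13, SE 0.15, adjusted p = 0.48), also without a call. Jak2, a kinase of the interferon-gamma receptor, rose by 1.17. Of 9 MHC class I presentation genes all 9 rose, with a median of 1.88, led by Nlrc5, the class I transactivator, at 3.93 and H2-K1 at 2.46. None of 5 MHC class II genes was called. Among 5 nucleic acid enzymes 3 rose, Eif2ak2, the RNA-dependent kinase PKR, by 2.81, Trex1 by 2.60 and Adar by 2.45. Cxcl10, the chemokine that draws T cells, rose from 3.13 and 3.85 to 6.23 and 6.27 (log2 change 2.76, SE 0.31, adjusted p = 3.1e-07).

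Both day 3 groups were compared with the same CF D0 arrays, so the next counts share their controls. In LacZ D3 6 members fell and none rose, where 6.30% of genes were called lower. The medians were -0.36 for type I and -0.79 for the gamma type, beside -0.06 over all genes. The 6 were Rsad2 (viperin, an antiviral enzyme that makes a chain-terminating nucleotide; log2 change -2.69, SE 0.86, adjusted p = 0.021), Mx1 (log2 change -1.90, SE 0.36, adjusted p = 0.00042), Ifit2, Oas3, Psmb9 (log2 change -1.42, SE 0.22, adjusted p = 6e-05) and Tap1 (log2 change -1.32, SE 0.34, adjusted p = 0.0058). Without any 1 of the 4 arrays the calls of Rsad2 and Oas3 were lost (adjusted p 0.07 to 0.10 and 0.11 to 0.13). Without CF D0 replicate 2 the count was 3, with Tap1 at adjusted p = 0.065.

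In MGT D3 against CF D0 17 members fell and none rose, where 9.67% of genes were called lower. The medians were -1.36 and -1.44, beside -0.10 over all genes. Mx1, a dynamin-like GTPase that traps viral nucleoprotein, went from 1.84 and 1.75 to -2.08 and -2.23 (log2 change -3.95, SE 0.36, adjusted p = 4.8e-08). Rsad2 (log2 change -3.90, SE 0.86, adjusted p = 0.0011) and Ifit3 (log2 change -2.91, SE 0.69, adjusted p = 0.0022) came next among type I members. In the other class Psmb9, an immunoproteasome subunit, went from 2.52 and 2.55 to 0.46 and 0.39 (log2 change -2.11, SE 0.22, adjusted p = 3.2e-07), followed by Tap1 (log2 change -1.93, SE 0.34, adjusted p = 0.00015) and Igtp (log2 change -1.68, SE 0.19, adjusted p = 1e-06). Day 0 and day 3 lie on other slides and scan days, so slide and day cannot be told apart here, and the share of slide in these values was not tested.

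**Figure D3:**
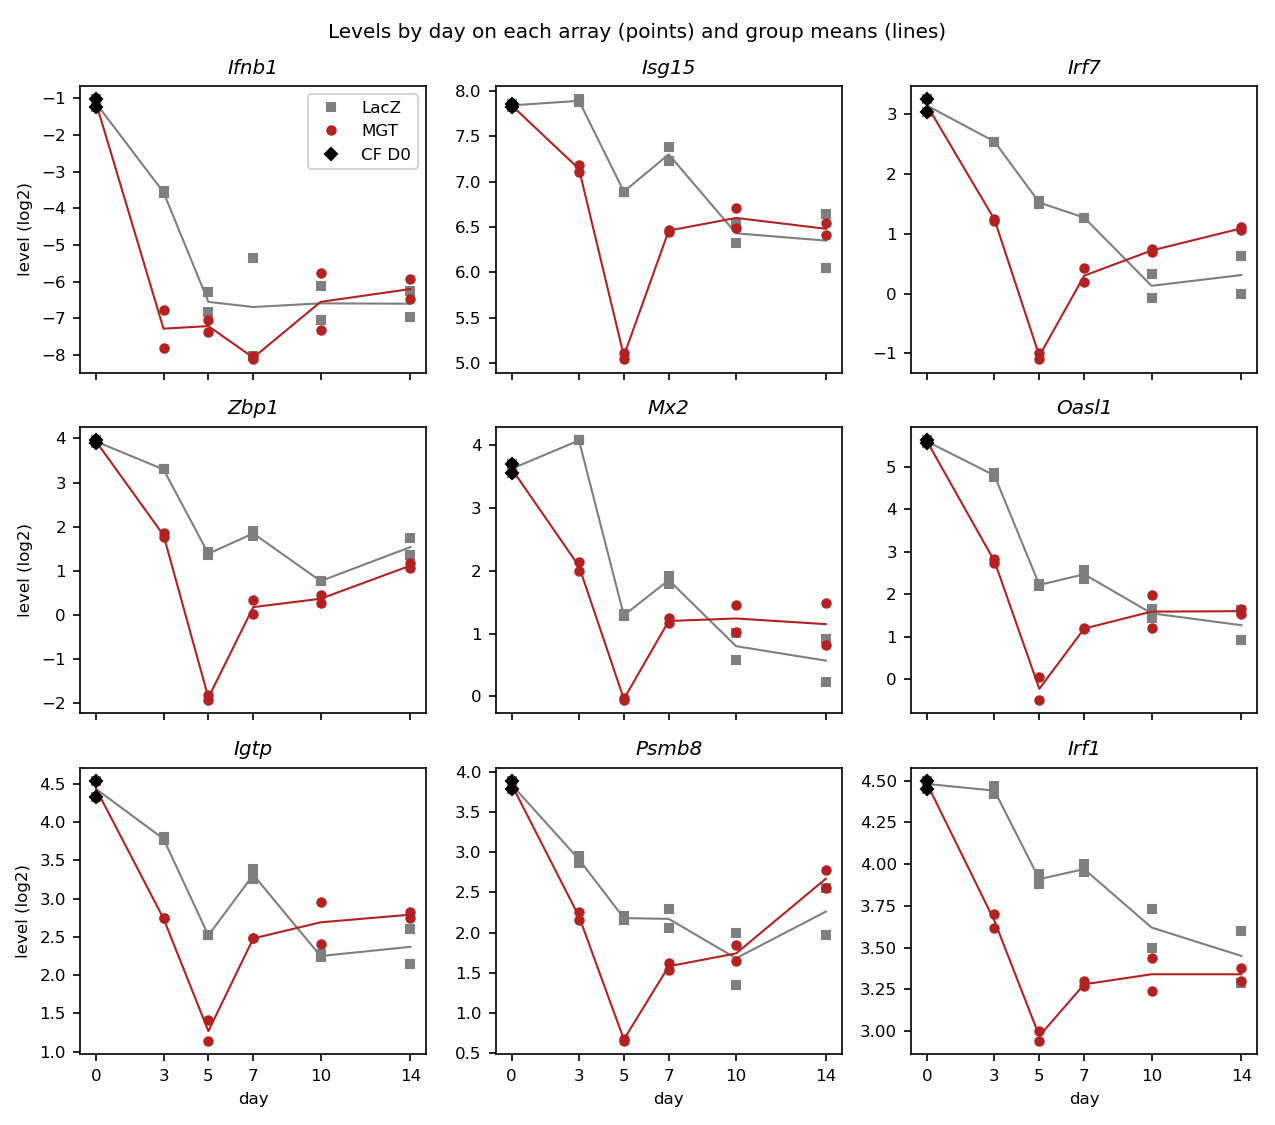
Log2 levels of Ifnb1 and 8 members by day, with points for single arrays and lines through group means; grey squares are LacZ, red circles MGT and black diamonds CF D0. Each MGT line of the 8 members is lowest on day 5, and Ifnb1 is well above background on both arrays only in CF D0 and LacZ D3 here.

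On day 3, with the arrays of both groups on the same slide, all 36 members were lower with MGT than with LacZ on average. Of these 8 passed the test, 6 of type I and 2 of the gamma type, where 1.86% of genes were called lower, and the class medians were -0.93 and -0.67 beside -0.05 over all genes. Mx1 was -0.13 and -0.07 with LacZ and -2.08 and -2.23 with MGT (log2 change -2.05, SE 0.36, adjusted p = 0.00064). Mx2, its paralogue, was 4.08 and 4.07 and 2.14 and 2.00 (log2 change -2.00, SE 0.31, adjusted p = 0.0002). Zbp1, a sensor of left-handed nucleic acid, was 3.30 and 3.30 and 1.87 and 1.76 (log2 change -1.48, SE 0.26, adjusted p = 0.0006). In the other class the 2 that fell were Irgm1, 5.94 and 5.96 against 4.77 and 4.83 (log2 change -1.16, SE 0.30, adjusted p = 0.016), and Igtp, 3.76 and 3.80 against 2.74 and 2.75 (log2 change -1.03, SE 0.19, adjusted p = 0.0012). Irf7, Dhx58 and Usp18 were the other calls. Igtp was under 2-fold with quantile normalization (-0.96), normexp with quantile (-0.95) and the authors' values (-0.96). Usp18 was under 2-fold with normexp and quantile (-0.98) and the authors' values (-0.97). With the authors' values Irgm1 was not called either (adjusted p = 0.074 in limma), so neither call of the gamma type held there. Irgm1 and Usp18 lost the call without any 1 of the 4 arrays (adjusted p 0.087 to 0.11 and 0.054 to 0.10). Fitted without the iPSC2-CM D29 arrays, 14 members fell, 12 of them type I, where 3.59% of genes were called lower.

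Day 5 had the lowest class medians of the 5 days. All 36 members were lower with MGT on average, and 19 fell, 15 of type I and 4 of the gamma type, where 3.47% of genes were called lower. The medians were -1.48 and -1.03, beside -0.10 over all genes. Zbp1 was 1.35 and 1.42 with LacZ and -1.93 and -1.82 with MGT (log2 change -3.26, SE 0.26, adjusted p = 2e-08), and its second probe gave -4.05. Ifit3 followed, at 3.89 and 3.88 and 1.12 and 0.91 (log2 change -2.87, SE 0.69, adjusted p = 0.0064), then Irf7 (log2 change -2.56, SE 0.29, adjusted p = 2e-06). Without MGT D5 replicate 2 the change of Ifit3 was -2.77 at adjusted p = 0.053. Among the gamma type, Psmb8 (log2 change -1.51, SE 0.45, adjusted p = 0.029), Irgm1 (log2 change -1.5, SE 0.30, adjusted p = 0.0013), Igtp (log2 change -1.25, SE 0.19, adjusted p = 0.0001) and Psmb9 fell, and Psmb8 lost its call without any 1 of the 4 arrays (adjusted p 0.11 to 0.14), as did Ifit1, Oas2 and Ifi44.

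On day 7 all 36 members were again lower with MGT on average, with medians of -0.82 and -0.76 beside -0.09 over all genes. Only Zbp1 (log2 change -1.67, SE 0.26, adjusted p = 9.4e-05) and Irgm1 (log2 change -1.14, SE 0.30, adjusted p = 0.011) passed the test, where 3.51% of genes were called lower. With the authors' values Irgm1 was at -1.03 and not called (adjusted p = 0.065 in limma). Without any 1 of the 4 arrays the call of Irgm1 was lost (adjusted p 0.051 to 0.085), which leaves 1. Fitted without the iPSC2-CM D29 arrays 10 members fell, where 5.48% of genes were called lower.

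On day 10 no member was called by limma, where 8.61% of genes were called in either direction, and 3 had an unadjusted p under 0.05. Of the 36, 28 were higher with MGT on average, with medians of 0.11 and 0.14 beside -0.12 over all genes. With LacZ D10 replicate 2 left out 1 member was called. On day 14 the medians were 0.31 and 0.31, 30 members were higher with MGT, and Oas3, a synthase of the antiviral messenger 2-5A, was the 1 called (log2 change 1.69, SE 0.49, adjusted p = 0.015), where 5.92% of genes were called higher. Its arrays gave -3.39 and -3.89 with LacZ, the lower of them not well above background, and -1.97 and -1.93 with MGT. The call was lost without either MGT D14 array or without LacZ D14 replicate 2, while 4 members were called without LacZ D14 replicate 1. The day 14 groups lie on different slides of the same scan day.

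**Figure D4:**
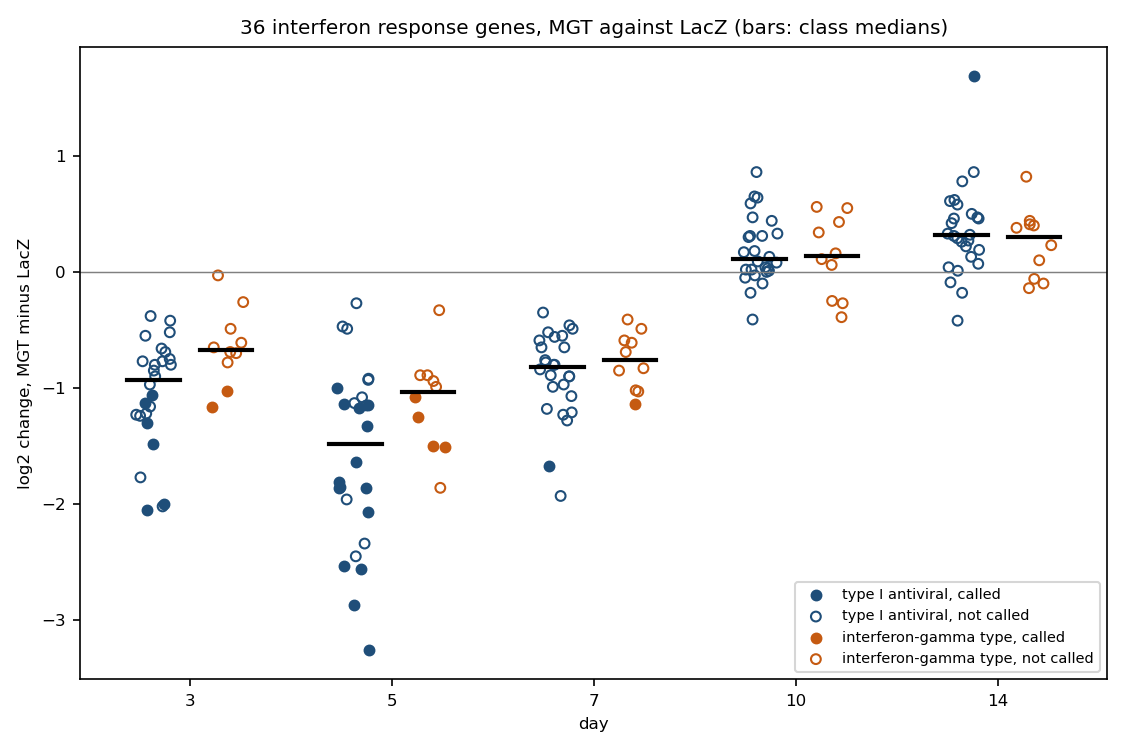
Log2 change, MGT minus LacZ, of the 36 members on each day (horizontal axis, days spaced evenly), with filled points for calls and bars for class medians. All points lie below 0 on days 3, 5 and 7, and 28 and 30 members lie above 0 on days 10 and 14.

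The change in the gap between day 3 and day 10 was itself tested, and 7 members passed, all toward higher values with MGT, where 1.41% of genes were called in that direction. They were Mx2 (log2 change 2.45, SE 0.44, adjusted p = 0.0032), Mx1 (log2 change 1.95, SE 0.51, adjusted p = 0.047), Irf7 (log2 change 1.89, SE 0.40, adjusted p = 0.012), Usp18 (1.71), Dhx58 (1.44), Igtp (log2 change 1.47, SE 0.27, adjusted p = 0.0041) and Iigp1 (log2 change 1.05, SE 0.21, adjusted p = 0.0081). Leaving out 1 array at a time ended the call of Mx1 and Dhx58 in 7 of 8 fits, of Irf7 and Usp18 in 5 and of Iigp1 in 2. The medians of this change were 1.13 for type I and 0.81 for the gamma type, beside -0.03 over all genes. Without MGT D10 replicate 1 the count was 2, and without MGT D3 replicate 2, LacZ D3 replicate 1 or LacZ D3 replicate 2 it was 3. Fitted without the iPSC2-CM D29 arrays it was 14, where 3.10% of genes were called higher.

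Days 3 and 10 were also compared within each course. Their arrays lie on different slides of the same scan day, so day and slide cannot be told apart in these comparisons. LacZ D10 had 14 members lower than LacZ D3 and none higher, where 3.94% of genes were called lower, with medians of -1.38 and -0.88 beside -0.02 over all genes. Mx2 went from 4.08 and 4.07 to 1.01 and 0.58 (log2 change -3.28, SE 0.31, adjusted p = 8.5e-07). Oasl1, a regulator of Irf7 translation, went from 4.76 and 4.85 to 1.65 and 1.45 (log2 change -3.25, SE 0.95, adjusted p = 0.025), a call lost without any 1 of the 4 arrays (adjusted p 0.091 to 0.12), as were those of Ifi44 and Xaf1. Oas3 (log2 change -2.77, SE 0.49, adjusted p = 0.00055), Igtp (log2 change -1.53, SE 0.19, adjusted p = 2.1e-05) and Irgm1 (log2 change -1.23, SE 0.30, adjusted p = 0.0072) were the next in their classes, and Irgm1 lost its call without LacZ D3 replicate 2 or LacZ D10 replicate 2 (adjusted p 0.054 and 0.052). Of 7 endothelial markers 3 fell and of 6 granulocyte markers 4 fell, with medians of -0.80 and -2.04, while 5 of 13 macrophage markers rose, and their part in the result was not tested. Without the iPSC2-CM D29 arrays 22 members fell, where 5.84% of genes were called lower.

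MGT D10 against MGT D3 gave 1 call, Zbp1 from 1.87 and 1.76 to 0.45 and 0.28 (log2 change -1.45, SE 0.26, adjusted p = 0.00069), where 2.68% of genes were called lower, and medians of -0.29 and -0.22 beside -0.03. Leaving out MGT D10 replicate 2 gave 2 calls. Fitted without the iPSC2-CM D29 arrays there were 3 calls, 2 lower and 1 higher, where 4.54% of genes were called lower. All 36 members had their lowest mean of the MGT course on day 5, whereas the LacZ course had its lowest on day 14 for 17 members, day 10 for 15 and day 5 for 4.

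Ifnb1 and Cxcl10 moved beside the members in the course. Ifnb1 fell from CF D0 to LacZ D3 (log2 change -2.42, SE 0.60, adjusted p = 0.0043). In MGT D3 both arrays were not well above background, at least 21.8-fold below CF D0 (adjusted p = 1.4e-07 in limma) and at least 4.07-fold below LacZ D3 (adjusted p = 0.0003). Cxcl10 was 4.25 and 4.32 with LacZ and 2.49 and 2.26 with MGT on day 3 (log2 change -1.91, SE 0.31, adjusted p = 0.00028), and 1.47 and 1.43 and 0.70 and -0.04 on day 5 (log2 change -1.12, SE 0.31, adjusted p = 0.017). Among the other pathway lists on day 5, none of 6 receptors and none of 7 ligands was called, and 1 of 9 MHC class I genes fell (Tap2 by 1.08).

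Macrophage markers had their lowest median on day 5 in both courses, as all 36 members had their lowest mean in MGT, and their highest on day 14. Relative to each gene's mean, their median was 1.14 and 1.09 in LacZ D3, -0.46 and -0.43 in LacZ D5, 0.39 and 0.21 in LacZ D7, 0.58 and 2.43 in LacZ D10 and 3.57 and 4.10 in LacZ D14. In MGT it was 1.29 and 1.31 on day 3, -0.03 and -0.22 on day 5, 0.24 and 0.79 on day 7, 1.03 and 1.27 on day 10 and 3.34 and 3.39 on day 14. None of the 13 markers was called between MGT and LacZ on any of the 5 days. Of the 9 fibroblast markers none was called on days 3 to 10 and 2 were lower with MGT on day 14. Endothelial markers were lower with MGT beside the members: of 7, 1 was called lower on day 3, 1 on day 5, 4 on day 7, 2 on day 10 and 0 on day 14, with median changes of -0.86, -1.46, -2.34, -1.89 and -1.0. Cardiomyocyte markers were higher with MGT, with 4 of 8 called on day 3 and 6 on day 5. Of 6 granulocyte markers 2 were called lower on day 5. The part of these lists in the members' values was not tested.

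Induced cardiomyocytes of the direct route had higher levels of part of the set than fresh fibroblasts. Against neoCF 16 members rose in iCM and 1 fell, where 37.3% of genes were called in either direction (17.8% higher, 19.5% lower), with medians of 1.31 and 0.80 beside 0.05 over all genes. Ifit1 (log2 change 4.64, SE 0.58, adjusted p = 1.6e-06), Ifit3 (log2 change 4.37, SE 0.69, adjusted p = 2.4e-05) and Usp18 (log2 change 3.96, SE 0.26, adjusted p = 2.3e-10) rose most. In the other class Irgm1 (log2 change 1.5, SE 0.30, adjusted p = 0.00024) and Psmb8 (log2 change 1.42, SE 0.45, adjusted p = 0.012) rose, the latter not without neoCF replicate 2 or iCM replicate 2 (adjusted p 0.087 and 0.054), and Irf1 fell (log2 change -1.87, SE 0.20, adjusted p = 1.8e-07). All 13 macrophage markers were well above background in both groups, at a median of 2.92 and 2.66 for neoCF arrays against 2.90 and 2.88 for iCM arrays, and their part in the result was not tested.

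The iCM were also compared with the last day of the course, on other slides and scan days. Against MGT D14 11 members fell and none rose, where 11.7% of genes were called lower, with medians of -1.07 and -0.65 beside -0.07. Mx1 (log2 change -2.68, SE 0.36, adjusted p = 9.9e-06), Irf7 (log2 change -2.43, SE 0.29, adjusted p = 2.1e-06) and Isg15 (log2 change -2.07, SE 0.30, adjusted p = 2.1e-05) fell most, and Tap1 (log2 change -1.38, SE 0.34, adjusted p = 0.0036) and Irgm1 (log2 change -1.14, SE 0.30, adjusted p = 0.0049) among the gamma type. Against LacZ D14 5 fell and none rose, where 17.8% of genes were called lower, with medians of -0.62 and -0.25 beside -0.14, so the members' share was below that of all genes. The 5 were Mx1 (log2 change -2.07, SE 0.36, adjusted p = 0.00011), Isg15 (log2 change -1.95, SE 0.30, adjusted p = 2.7e-05), Zbp1 (log2 change -1.70, SE 0.26, adjusted p = 2.6e-05), Irf7 and Irgm1 (log2 change -1.20, SE 0.30, adjusted p = 0.0025), and Irgm1 was at -0.92 without LacZ D14 replicate 1. Without the iPSC2-CM D29 arrays the counts were 17 against MGT D14, where 13.2% of genes were called lower, and 8 against LacZ D14, where 19.5% were.

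Primary cardiomyocytes held less of the set than primary fibroblasts. In neoCM against neoCF 21 members fell and 1 rose, where 31.6% of genes were called in either direction (16.2% lower, 15.4% higher), with medians of -1.52 and -2.19 beside -0.05. Oas1a (log2 change -4.66, SE 1.07, adjusted p = 0.0012), Oas2 (log2 change -4.63, SE 0.59, adjusted p = 2.5e-06) and Oasl1 (log2 change -3.83, SE 0.95, adjusted p = 0.0024) fell most among type I members measured in both groups, and Mx1 was at least 7.2-fold lower, since neither neoCM array was well above background. In the other class Gbp3 (log2 change -3.24, SE 0.94, adjusted p = 0.0073), Psmb8 (log2 change -2.90, SE 0.45, adjusted p = 2.4e-05) and Psmb9 (log2 change -2.46, SE 0.22, adjusted p = 2.6e-08) fell most, and the call of Gbp6 was lost without any 1 of the 4 arrays (adjusted p 0.058 to 0.13). The 1 that rose was Rsad2, -0.30 and -0.63 in neoCF and 2.49 and 2.58 in neoCM (log2 change 3.00, SE 0.86, adjusted p = 0.0065). Of 13 macrophage markers 12 fell in neoCM, with a median of -4.40, and their part in the result was not tested. The neoCF arrays lie on another slide and scan day than the neoCM and iCM arrays, and in both comparisons with neoCF the group cannot be told apart from its slide.

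In iCM against neoCM 31 members rose and 1 fell, where 39.0% of genes were called in either direction (18.9% higher, 20.1% lower), with medians of 2.89 and 2.38 beside -0.01. Oas1a (log2 change 6.56, SE 1.07, adjusted p = 2.9e-05), Usp18 (log2 change 5.77, SE 0.26, adjusted p = 8.2e-13) and Ifit1 (log2 change 5.77, SE 0.58, adjusted p = 7.7e-08) rose most in the type I class, and Psmb8 (log2 change 4.32, SE 0.45, adjusted p = 1.2e-07), Gbp3 (log2 change 3.93, SE 0.94, adjusted p = 0.0014) and Psmb9 (log2 change 3.43, SE 0.22, adjusted p = 1.5e-10) in the other. Rsad2 was the 1 that fell, at -0.89 and -0.45 in iCM (log2 change -3.21, SE 0.86, adjusted p = 0.0033). Without any 1 of the 4 arrays Gbp2 and Oasl2 lost their calls (adjusted p 0.060 to 0.094 and 0.11 to 0.14). Of 13 macrophage markers 11 rose and 1 fell, with a median of 4.40, while all 6 granulocyte markers fell, and their part in the result was not tested.

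The stem cell route gave cells with little of the set. Averaged over iPSC1-CM D13 and iPSC2-CM D9, 30 members were lower than in neoCF and none was higher, where 19% of genes were called lower, with medians of -3.03 and -3.30 beside 0.18. Oasl1, Parp14 and Rsad2 had the lowest fitted values among type I and Gbp3, Gbp6 and Psmb8 in the other class. Rsad2 was at least 35.2-fold lower, and the others were not well above background on 1 or 2 of the 4 stem cell-derived arrays, so they are given no size or order. Members measured on all 4 arrays, named after their values were seen, included Xaf1, a pro-apoptotic factor (log2 change -4.78, SE 0.31, adjusted p = 1.2e-10), the RNA sensor Ifih1 (log2 change -3.86, SE 0.51, adjusted p = 2.3e-06), Gbp2 (log2 change -4.98, SE 0.81, adjusted p = 2.8e-05) and Irf1 (log2 change -3.35, SE 0.17, adjusted p = 3.8e-12). Uncalled were Oas3, Stat2, Trim25, Bst2, Tap1 and the reported probe of Iigp1. Against neoCM 23 members were lower and 1 higher, where 37.8% of genes were called in either direction (18.8% lower, 19% higher), with medians of -1.78 and -1.58 beside 0.07. Rsad2 was at least 282-fold lower, and Gbp2, measured on all arrays, was lower too (log2 change -4.06, SE 0.81, adjusted p = 0.00024). Parp14, Oasl1, Gbp6 and Gbp3 were called lower without a size, for the same reason as above. Tap1 was the 1 that was higher (log2 change 2.38, SE 0.30, adjusted p = 1.1e-06). The stem cell-derived arrays lie on another slide than neoCF, and on another slide and scan day than neoCM. In both comparisons the group cannot be told apart from its slide.

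Set against each other, iCM exceeded the stem cell-derived cells in 33 of 36 members and were lower in none, where 21.7% of genes were called higher, with medians of 5.20 and 4.07 beside -0.15. Oas1a, Parp14 and Ifit3 had the highest fitted values among type I members and Psmb8, Gbp3 and Gbp2 in the other class. Of these Gbp2 was measured on all arrays (log2 change 6.66, SE 0.81, adjusted p = 5.6e-07), and the others were not well above background on 1 or 2 stem cell-derived arrays and are given no size. Usp18, measured on all arrays and named after its value was seen, was higher in iCM as well (log2 change 6.96, SE 0.22, adjusted p = 3.9e-15). For Oas1a the iCM arrays gave 3.69 and 3.34, those of iPSC1-CM D13 -4.48 and -4.85 and those of iPSC2-CM D9, not well above background, -5.95 and -5.30. Its reported probe also matches Oas1g, and the other Oas1a probe followed it at r = 0.99 over the 17 group means. The iCM and the stem cell-derived arrays lie on other slides and scan days. Macrophage markers had a median of 2.90 and 2.88 for iCM arrays, -4.85 and -5.26 for iPSC1-CM D13 and -5.30 and -5.30 for iPSC2-CM D9, and its part in the result was not tested.

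Within the stem cell route, iPSC1-CM D13 had 10 members higher and 1 lower than iPSC2-CM D9, where 21.3% of genes were called in either direction (12.2% higher, 9.1% lower). The medians were 0.25 for type I with 5 higher and 1.61 for the gamma type with 5 higher, beside -0.09 over all genes. In iPSC2-CM D9 14 and 13 of the 26 type I members and 8 and 7 of the 10 others were well above background, so these medians do not compare the classes. Ifit2 was -1.06 and -1.38 in iPSC1-CM D13 and -4.5 and -6.05 in iPSC2-CM D9 (log2 change 4.05, SE 0.31, adjusted p = 4.5e-09). The last of these arrays was not well above background, so the size of this change rests in part on a background reading. Oasl2, at least 14.4-fold higher, lost its call without any 1 of the 4 arrays (adjusted p 0.052 to 0.064), and Ifit3 was at least 4.01-fold higher. Irgm1 was 1.38 and 0.98 and -2.45 and -3.03 (log2 change 3.92, SE 0.30, adjusted p = 3.7e-09), Psmb8 at least 5.22-fold higher and Gbp6 at least 1.6-fold higher, the last without a call when any 1 array was left out (adjusted p 0.065 to 0.084). Irf7 was the 1 called lower, but neither group was well above background, so it is given no fold. The count was 7 without iPSC1-CM D13 replicate 2 or without iPSC2-CM D9 replicate 1.

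In iPSC2-CM D29 against iPSC2-CM D9 19 members rose, 12 of type I and 7 of the gamma type, and none fell, where 14.8% of genes were called higher, with medians of 1.47 and 1.99 beside 0.04. With array weights 2 were called, and Ifit1, Ifit3, Psmb8 and Gbp2 were not (adjusted p 0.34, 0.24, 0.068 and 0.17). Without iPSC2-CM D29 replicate 1, 12 were higher and 4 lower. Against arrays not well above background, Parp14 was at least 13.8-fold higher, Ifit3 at least 3.27-fold, Ifit1 at least 3.51-fold and Psmb8 at least 8.5-fold. Gbp2 (log2 change 3.26, SE 0.94, adjusted p = 0.0091), Irgm1 (log2 change 2.67, SE 0.30, adjusted p = 6.7e-07) and, named after its value was seen, Xaf1 (log2 change 2.71, SE 0.36, adjusted p = 5.8e-06) were measured on all 4 arrays. The D29 arrays disagreed on these genes, with Parp14 at 0.77 and -3.55 and Gbp2 at 2.02 and -3.61, the higher value always in replicate 1. Without replicate 1 Gbp2 was at 0.44 (adjusted p = 0.20), Gbp6 at 0.12 (adjusted p = 0.64) and Gbp3 at -0.15 (adjusted p = 0.76). The fibroblast marker median was -1.47 in replicate 1 and -6.94 in replicate 2, the macrophage median -3.13 and -4.86, and their part in the result was not tested.

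Across the 17 groups the 2 classes ran side by side. Their median levels, each gene centred on its own mean, correlated at r = 0.99 over the 17 group means, a description of groups that share cells, slides and scaling. In CF D0 the medians were 3.34 and 3.25 for type I and 2.11 and 2.28 for the gamma type, and in neoCF -0.68 and -1.06 against 0.17 and -0.27. In neoCF the gamma type thus stood above type I on both arrays, and in CF D0 below it. This order was not particular to neoCF and CF D0. The gamma type also stood above type I in neoCM (-1.76 and -1.79 against -2.72 and -2.77) and on the stem cell-derived arrays. In LacZ D3 it stood below (1.58 and 1.66 against 2.58 and 2.59). The same medians correlated over the 17 groups with those of macrophage markers at r = 0.79 for type I and 0.80 for the gamma type, with fibroblast markers at 0.75 and 0.82, and with cardiomyocyte markers at -0.70 and -0.68. The correlations of larger size were those with plasmacytoid dendritic cell markers, a list of 4 that holds the member Bst2, at 0.83 and 0.88, and with pluripotent stem cell markers at -0.82 and -0.85. In MGT D5 the medians were -0.10 and -0.16 for type I and -0.08 and -0.20 for the gamma type, the lowest of the course for both.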

How the data were processed

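RNA of 34 samples was hybridised to one-colour Agilent arrays with probe positions in mm9, and the deposited files hold intensity values that Agilent's scanner software produced (its Feature Extraction, release 10.7.3.1 by the headers). The processed signal is background-subtracted by that software. The submitters' processing notes name limma without a version. The authors' deposited log2 values, on 52581 probes, served as an alternative and correlated with the processed signal at r of at least 0.982; how they were scaled is not given in the sources used here.

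From the processed signal, log2 was taken and each array's 75th percentile subtracted. Control and outlier spots were left out, spots of a probe averaged, and probes filtered from 55681 to 43381; 25634 had a gene, and 1 probe was kept for each of 19413 genes. Limma 3.58.1 in R 4.3.3 was fitted over all 34 arrays, with Benjamini-Hochberg adjustment over all genes; a call needs an adjusted p under 0.05 and a 2-fold change. Where every array of a group was not well above background, a bound replaces the fold; where only some arrays of the averaged stem cell-derived groups were, no size is given. The scripts were tested on simulated data.

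Members are matched by the files' gene name, and the members and lists were chosen with earlier results of these data known. Those given in full are the 3 largest called changes of each class in a comparison, members called against the direction of most, and a fixed set followed in all groups: Isg15, Ifit1, Ifit3, Irf7, Stat2, Irf1, Gbp2, Iigp1, Psmb8, Tap1 and Ifi27. Pathway lists are given as counts with examples, and Ifnar1, Ifngr1 and Ifnb1 always; some pathway genes are not reported here. Promoters are RefSeq's, GRCm38.p6. Replicate numbers did not pair samples: over 136 pairs of groups the same-number correlation had a median of 0 and ran from -0.13 to 0.17. The alternatives were other normalizations and filters, the authors' values, array weights, replicate and slide blocks, no fold minimum, and leaving out each array or the iPSC2-CM D29 arrays. Their number of 2 arrays a group limits the precision.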

Additional observations from a re-analysis of the deposited data

Results flagged for a closer look

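The difference between MGT and LacZ was called different on day 10 and day 3 for 9 of the listed members and pathway genes. The call is by limma's test of that change with Benjamini-Hochberg adjustment over all genes. Each fitted value was higher on day 10, but that of Ifnb1 rests on background readings. Among type I members the change in log2 difference was 2.45 for Mx2 (adjusted p = 0.0032), 1.95 for Mx1 (adjusted p = 0.047), 1.89 for Irf7 (adjusted p = 0.012), 1.71 for Usp18 (adjusted p = 0.012) and 1.44 for Dhx58 (adjusted p = 0.023). Among members of the gamma type it was 1.47 for Igtp (adjusted p = 0.0041) and 1.05 for Iigp1 (adjusted p = 0.0081). Of the other pathway genes it was 2.11 for Cxcl10 (adjusted p = 0.0094) and 3.76 for Ifnb1 (adjusted p = 0.019). For Ifnb1, MGT D3, MGT D10 and LacZ D10 were all not well above background. Its day 10 difference lies between background readings, so this value gives neither a size nor a direction. Some of these calls were lost in limma under other processing. Dhx58 lost it with quantile normalization (adjusted p = 0.098) and the authors' values (0.097). Mx1 lost it with the authors' values (adjusted p = 0.12) and without the filter on dim probes (0.059), and Iigp1 with the mean of its probes (0.22).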

How the results depend on the processing

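Counts of called members stayed within 1.5 times in 184 of 209 alternatives other than leaving out 1 array, and in 77 of 94 that did. Normexp with quantile normalization gave 7 for iPSC1-CM D13 against iPSC2-CM D9, 4 for MGT against LacZ on day 7 and 11 for the change between days 3 and 10. Array weights gave 2 for iPSC2-CM D29 against D9, 14 on day 3, 10 on day 7, 22 for LacZ D10 against D3, 3 for MGT D10 against D3, 17 for the change and 17 for iCM against MGT D14. Without the iPSC2-CM D29 arrays these were 14 on day 3, 10 on day 7, 22, 3, 14 and 17, and 8 for iCM against LacZ D14. With no fold minimum they were 19 for iPSC1-CM D13 against iPSC2-CM D9, 12 on day 7, 1 on day 10, 2 on day 14, 3 for MGT D10 against D3 and 10 for iCM against LacZ D14.

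The replicate block, on numbers that did not pair the samples, gave 2 for MGT D10 against D3 and kept all 312 calls of single genes; slide as a random block gave 2 there too. Leaving out 1 array gave 7 to 8 for iPSC1-CM D13 against iPSC2-CM D9, 3 to 4 for LacZ D3 against CF D0, 2 to 6 for the change, 1 on day 7 throughout, 0 to 1 on day 10, 0 to 4 on day 14 and 1 to 2 for MGT D10 against D3. Gbp3 in iPSC2-CM D29 against D9 reversed to -0.15 without iPSC2-CM D29 replicate 1 and was 5.37 without replicate 2. The cause was not tested. With 2 arrays a group and some members near background, small changes could not be resolved.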
